A study of Mus musculus with 8 samples.

Results

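The Hox genes are the homeobox transcription factors that lie in 4 genomic clusters named Hoxa, Hoxb, Hoxc and Hoxd. All protein-coding genes of the GRCm38.p6 RefSeq table whose symbol is one of these names followed by a number were taken, which gave 39 of the 21631 protein-coding genes on chromosomes 1 to 19 and X. There were 11 Hoxa genes on chromosome 6 (52155367 to 52260880), 10 Hoxb genes on chromosome 11 (96194316 to 96368254), 9 Hoxc genes on chromosome 15 (102921131 to 103036856) and 9 Hoxd genes on chromosome 2 (74668225 to 74765142). Each cluster was examined with 10 kb on either side.

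A Hox protein binds DNA through its homeodomain, usually together with a cofactor of the TALE class such as Pbx or Meis, and gives cells their position along the body axis. The genes of a cluster are arranged in the order in which they are used along that axis, and paralogs in different clusters carry the same number. The low numbers act in the hindbrain and neck, the high numbers in the lumbar and tail regions, the limbs and the urogenital tract, where Hoxa9 to Hoxa13 pattern the oviduct, uterus and vagina. A cluster that is silent in a cell is typically held by Polycomb complexes.

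Granulosa cells, which enclose and nourish the growing oocyte, were profiled by ATAC-seq, in which the transposase Tn5 cuts and tags open chromatin. Mice aged 21 days were injected with 5 IU of eCG, a gonadotropin that drives follicle growth, and 46 h later were killed at once or received 5 IU of hCG, which stands in for the LH surge, and were killed after another 6 h. The PMSG and hCG groups were wildtype F1 mice of strain CBA x C57BL/6, without and with hCG by their titles. The WT and KO groups were of strain C.129S7(B6)-Pgrtm1Bwo/OmcJ after hCG, wildtype or PR knockout. The knockout removes the progesterone receptor (PGR), and as a germline allele it is carried by every cell of the animal. Each group had 2 libraries and each library pooled cells of 2 to 3 mice. The time tags of the hCG and PMSG libraries (0 and 6 h) contradict their titles and source names, and the titles were followed. The source name of all WT and KO libraries is pre-ovulatory, whereas their time tag and the design text place them after hCG.

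The PMSG and hCG libraries are together called the F1 experiment, and the WT and KO libraries the PR strain.

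Peak lists of between 55654 (KO replicate 2) and 84313 (WT replicate 2) intervals were deposited, and the read depth behind them is unknown. The WT lists were longer than the KO lists and the hCG lists longer than the PMSG lists, so that the absence of an interval from a shorter list can be a matter of sensitivity. Peaks of the WT and KO lists are named after filtered, duplicate-marked alignments and those of the F1 lists are not, so that strain and processing cannot be told apart between the experiments. Of 10 granulosa markers, 7 (Foxl2, Fshr, Inhba, Cyp19a1, Amh, Esr2 and Gata4) were open in all 8 libraries. Among all 21631 protein-coding genes, 58.9% were open in all 8 and 35.5% in none, so the granulosa count was near the share of any gene. No epithelial marker (0 of 3) was open in any library. The leukocyte markers Ptprc and Itgam were open in none, but Cd68, a macrophage gene, was open in both hCG libraries and in no other library. Among the other lists, 2 of 4 endothelial genes (Cdh5 and Kdr), 1 of 3 oocyte genes (Gdf9) and 0 of 2 theca genes were open in all 8, and Cyp17a1, a theca gene, was open in 2. Of the other granulosa genes, Amhr2 was open in 7 libraries, Inha, which encodes the inhibin alpha subunit, in 2, and Nr5a2 in none. In bulk libraries, fewer cells with an open site and less accessibility per cell cannot be told apart.

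A gene was called open in a library if an interval shared 1 bp or more with its window. For the 22 Hox genes in the RefSeq promoter table the window ran from 250 bases before to 50 after the gene start. For the other 17 it was either end of the gene with 1 kb on each side, which is wider and does not separate the start from the 3′ end.

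A smaller share of Hox gene starts than of all gene starts was open. Among the 22 genes with a promoter window, 7 (31.8%) were open in all 8 libraries, namely Hoxa13, Hoxc4, Hoxd1, Hoxd9, Hoxd10, Hoxd11 and Hoxd13, against 58.6% of 17274 protein-coding genes with such a window. No library had an open window for 13 of the 22 (59.1%, against 36.5% of all): Hoxa2, Hoxa3, Hoxa5, Hoxa6, Hoxa7, Hoxa9, Hoxa10, Hoxa11, Hoxb1, Hoxb4, Hoxb8, Hoxd4 and Hoxd12. The remaining pair, Hoxd3 and Hoxd8, was open in 7 and 3 libraries (4.88% of all such genes were open in 1 to 7). Of the 17 genes with gene-end windows, 6 (35.3%, against 60.1% of 4357) were open in all 8 libraries (Hoxb7, Hoxc5, Hoxc6, Hoxc8, Hoxc9 and Hoxc10), 5 (29.4%, against 31.5%) in none (Hoxb3, Hoxb5, Hoxb6 and Hoxc12 among them), and 6 (35.3%, against 8.45%) in some. Neighbouring Hox genes lie close together and can share an interval, so the 39 genes are not independent.

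The sequences upstream of 6 gene starts show what the open and the closed windows look like. Each is the 250 bases before the start on the strand of the gene, from RefSeq, build GRCm38.p6. Hoxa13 and Hoxd13 are the most posterior paralogs and were open in all 8 libraries, Hoxa9 and Hoxd9 are a pair of paralogs of which only the latter was open, and Hoxa5 and Hoxa6 are CpG-rich windows that were open in no library. Capitals mark matches on either strand to 6 motifs, and adjoining or overlapping matches run together. The motif of the TATA box was spelled TATAAA. The GC box, bound by Sp1, was spelled GGGCGG. For the RUNX family the letters were TGTGGT. The site of AP-1 was searched as TGANTCA, where N is any base. The cyclic AMP response element was searched as TGACGTCA. The last motif was the CCAAT box, whose name gives its letters.
Hoxa13, chr6:52260881-52261130, minus strand: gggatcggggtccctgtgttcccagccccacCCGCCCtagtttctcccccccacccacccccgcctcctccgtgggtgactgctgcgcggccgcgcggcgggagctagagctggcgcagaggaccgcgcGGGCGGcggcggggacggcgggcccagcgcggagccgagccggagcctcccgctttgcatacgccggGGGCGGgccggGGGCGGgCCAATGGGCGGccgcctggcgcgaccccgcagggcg
Hoxd13, chr2:74667975-74668224, plus strand: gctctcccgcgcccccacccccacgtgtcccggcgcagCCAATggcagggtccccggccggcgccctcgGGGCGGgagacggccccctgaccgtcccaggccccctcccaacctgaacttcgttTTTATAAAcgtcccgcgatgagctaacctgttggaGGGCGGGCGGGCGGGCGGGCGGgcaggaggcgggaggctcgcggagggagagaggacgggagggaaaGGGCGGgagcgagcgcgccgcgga
Hoxa9, chr6:52227371-52227620, minus strand: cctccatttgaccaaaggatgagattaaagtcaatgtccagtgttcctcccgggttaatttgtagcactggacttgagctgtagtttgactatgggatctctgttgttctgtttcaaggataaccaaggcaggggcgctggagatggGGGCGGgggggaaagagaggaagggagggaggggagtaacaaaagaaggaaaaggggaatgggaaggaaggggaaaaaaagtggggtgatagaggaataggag
Hoxd9, chr2:74697513-74697762, plus strand: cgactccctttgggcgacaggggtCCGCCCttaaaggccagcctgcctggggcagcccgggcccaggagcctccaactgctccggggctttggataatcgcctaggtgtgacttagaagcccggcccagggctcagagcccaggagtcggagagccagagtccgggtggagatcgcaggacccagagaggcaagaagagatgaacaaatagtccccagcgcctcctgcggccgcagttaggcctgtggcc
Hoxa5, chr6:52204588-52204837, minus strand: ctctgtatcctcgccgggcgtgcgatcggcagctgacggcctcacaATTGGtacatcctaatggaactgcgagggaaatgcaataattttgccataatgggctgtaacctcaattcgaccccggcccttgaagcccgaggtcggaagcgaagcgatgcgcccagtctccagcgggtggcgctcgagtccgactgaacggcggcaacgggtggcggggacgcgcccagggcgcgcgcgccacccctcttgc
Hoxa6, chr6:52208673-52208922, minus strand: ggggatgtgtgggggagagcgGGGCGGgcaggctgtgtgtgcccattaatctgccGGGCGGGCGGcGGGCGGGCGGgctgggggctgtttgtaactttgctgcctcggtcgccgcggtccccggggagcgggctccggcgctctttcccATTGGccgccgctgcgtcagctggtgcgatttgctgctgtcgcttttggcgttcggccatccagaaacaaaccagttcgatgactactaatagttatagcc
Of 24 tabled Hox starts (Hoxa10 and Hoxd11 have 2 each), 10 (41.7%) held a GC box in these 250 bases, against 43.1% of 21045 starts of all protein-coding genes. A CCAAT box was held by 14 (58.3%, against 35.6%), a TATA box by 4 (16.7%, against 11.7%), an AP-1 match by 1 (4.17%, against 6.17%), a RUNX match by 1 (4.17%, against 12.2%) and the response element by 0 (against 1.94%). The homeodomain core TAAT, not marked in the sequences, was present in 18 (75%, against 49.3%). Hoxa13 held 35 CpG dinucleotides at a GC content of 80% and Hoxd13 held 31 at 74.4%, whereas Hoxa9 held 3 at 49.6% and Hoxd9 13 at 65.2%. Hoxa5 and Hoxa6 held 28 and 24 CpG, so that a CpG-rich start was no guarantee of an interval. The ratio of observed to expected CpG was 0.6 or more at 13 of the 24 Hox starts, and of these 4 (30.8%) were open in all 8 libraries. Over all genes, 91.4% of 9502 starts with such a ratio were open in all 8, and 56% of all 21045 starts. The median ratio was 0.755 at the 7 Hox starts open in all 8 libraries and 0.687 at the other 17.

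The clusters differed in how many of their genes were open. With both kinds of window, 6 of 9 Hoxc genes and 5 of 9 Hoxd genes were open in all 8 libraries, against 1 of 11 Hoxa genes (Hoxa13) and 1 of 10 Hoxb genes (Hoxb7). The kinds of window were mixed unequally: every Hoxd gene had a promoter window, and every Hoxc gene but Hoxc4 had the wider gene-end windows. No library had an open window for 9 of 11 Hoxa and 6 of 10 Hoxb genes, against 1 of 9 Hoxc (Hoxc12) and 2 of 9 Hoxd genes (Hoxd4 and Hoxd12). Over all 21631 genes, 58.9% were open in all 8 libraries, 35.5% in none and 5.6% in some. By paralog number, 7 of 16 posterior genes (9 to 13), 4 of 11 central genes (5 to 8) and 2 of 12 anterior genes (1 to 4, Hoxc4 and Hoxd1) were open in all 8. The order by paralog number and the size of the gaps between clusters depended on the window. With 1 kb around either gene end for every gene, 4 of 11 Hoxa genes (Hoxa5, Hoxa6, Hoxa10 and Hoxa13), 2 of 10 Hoxb, 5 of 9 Hoxc and 6 of 9 Hoxd genes were open in all 8 libraries. Hoxc and Hoxd thus still had larger shares than Hoxa and Hoxb. In all, 17 of 39 were open in all 8 (43.6%, against 59.9% of all genes), and 13 (33.3%, against 33.2%) were open in none. Those 13 were 4 of 11 Hoxa, 4 of 10 Hoxb, 2 of 9 Hoxc and 3 of 9 Hoxd genes, a smaller gap between clusters than with the first windows. Against the first windows 6 genes were gained (Hoxa5, Hoxa6, Hoxa10, Hoxb8, Hoxd3 and Hoxd8) and 2 were lost, Hoxc4 and Hoxd10, whose tabled starts lie inside the gene. By paralog number this window gave 8 of 11 central, 7 of 16 posterior and 2 of 12 anterior genes open in all 8, so the central genes then had the largest share. That share counts shared regions more than once: Hoxa5 and Hoxa6 were called by the same region, and so were Hoxb7 and Hoxb8. If 50% of a window had to be covered in all 8 libraries, 3 of 22 promoter windows passed (13.6%, against 53.7% of all: Hoxa13, Hoxd1 and Hoxd10) and 0 of 17 gene-end windows (against 15.1%). With 1 kb around the start for the 22 tabled genes, 11 (50%, against 61.6%) were open in all 8 and 8 (36.4%, against 33.3%) in none. Hoxa5 and Hoxa10 are the pair open in all 8 by the 1 kb window and in none by the promoter window, which is 18.2% of those 11 genes against 2.18% of 10643.

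**Figure D1:**
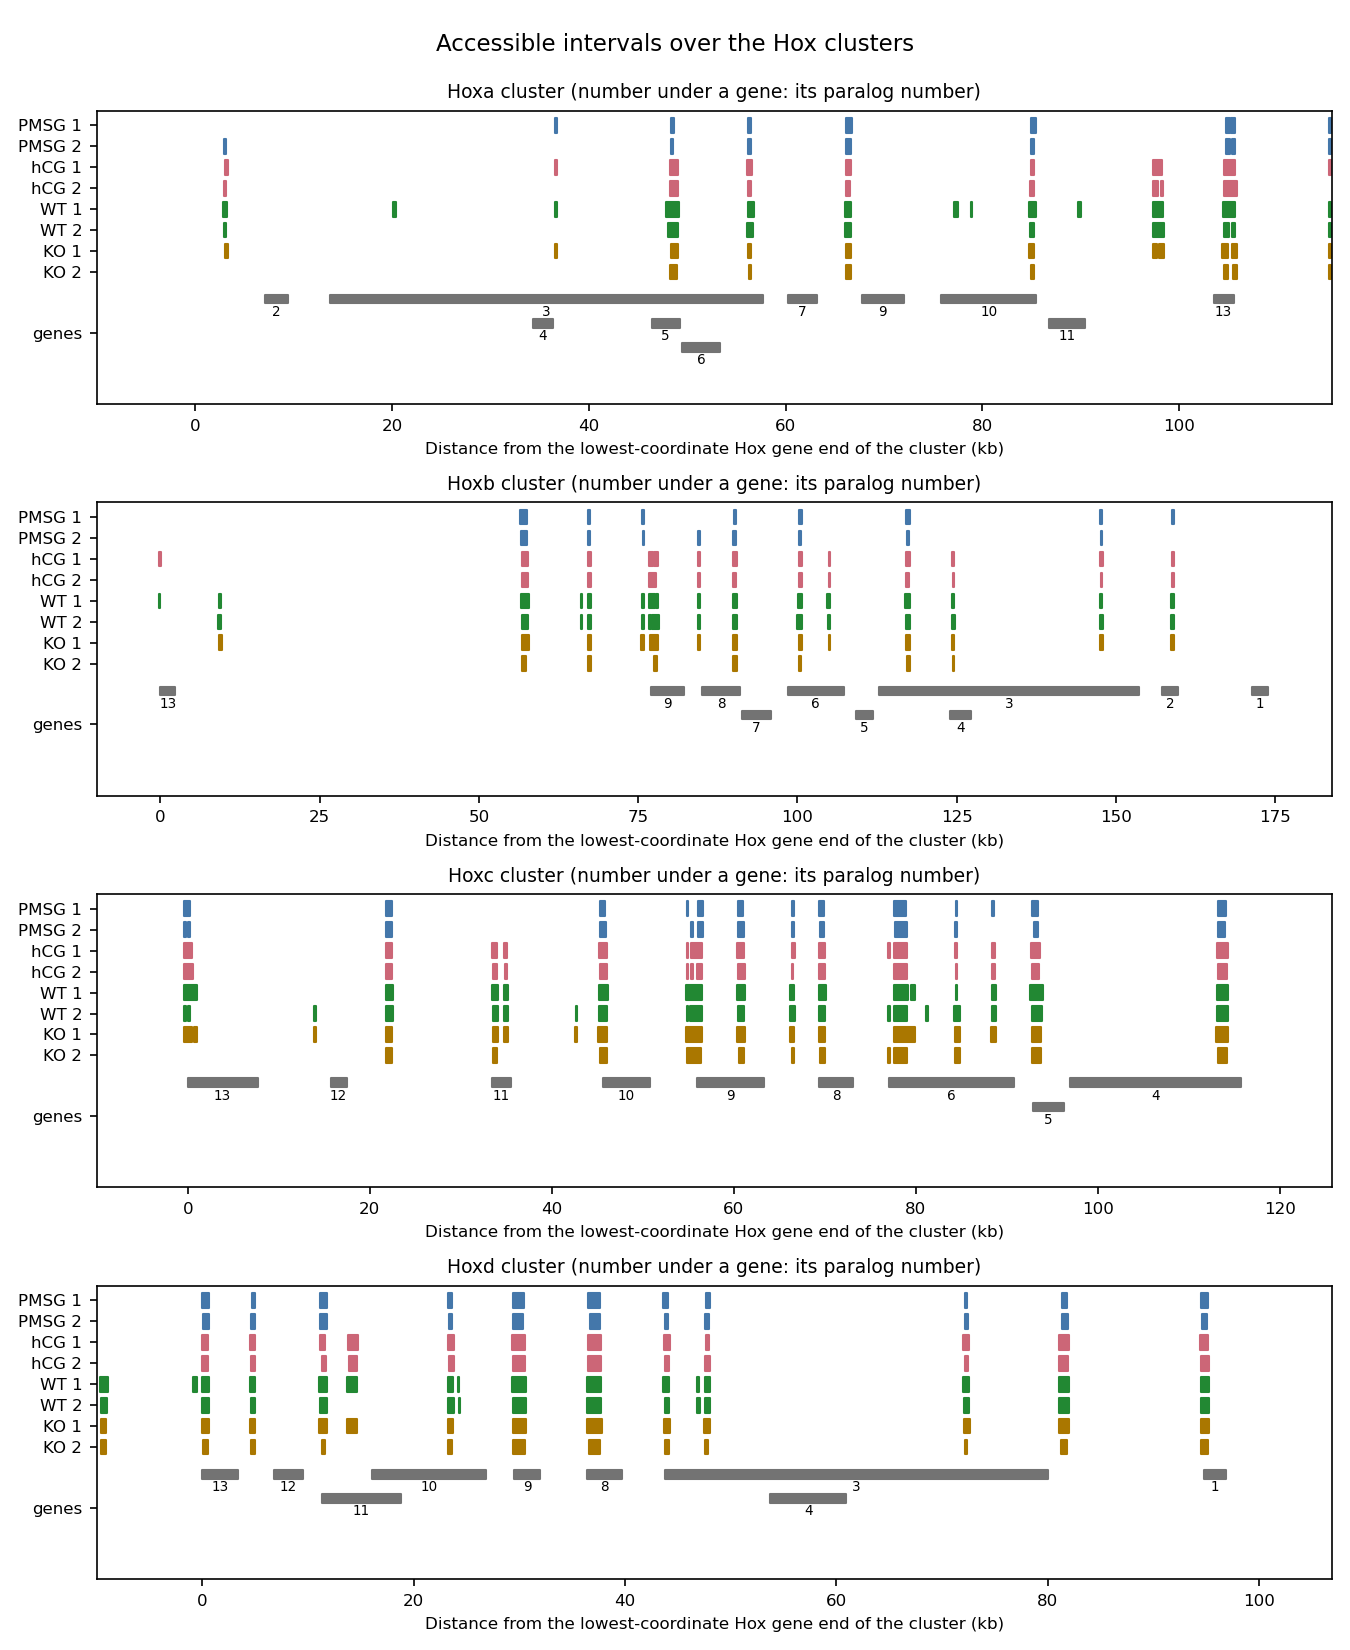
Accessible intervals of each library over the 4 Hox clusters. The x axis is the distance in kb from the lowest-coordinate Hox gene end of the cluster, each row is 1 of the 8 libraries, coloured boxes are intervals drawn to scale with a thin edge, and grey bars are genes with their paralog numbers. The Hoxc and Hoxd clusters hold more columns of intervals shared by all libraries (10 and 11 regions) than Hoxa and Hoxb (5 each).

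The intervals over the Hox windows formed 62 regions when overlapping intervals of the 8 lists were merged, with lengths from 120 to 2330 bp. All 8 libraries held 31 of them (50%, against 37.9% of 98245 regions genome-wide). These were 5 of 13 regions at Hoxa, 5 of 15 at Hoxb, 10 of 18 at Hoxc and 11 of 16 at Hoxd. A single library held 6 (WT replicate 1 held 5 of these and WT replicate 2 held 1), against 14.3% of regions genome-wide. Of the 62, 45 overlapped the body of a Hox gene, and 10 touched a tabled Hox promoter window.

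Hox intervals were weak in the ranking of each list. Column 7 of a list gives the authors' fold enrichment of an interval over its background, and a rank percentile places that fold among all intervals of the same list. Of 387 Hox intervals in the 8 lists, 3 (0.775%) ranked above percentile 80, where 20% of all intervals lie by construction, and 30.7% ranked above the median. The median rank percentile of Hox intervals ran from 26.9 in KO replicate 1 to 43.7 in PMSG replicate 1. The authors' fold of Hox intervals lay between 2.17 and 13.9 over all libraries. On open promoter windows the gap was wider. The median rank percentile of the 8 or 9 open Hox promoters ran from 27.5 (KO replicate 1) to 54.1 (WT replicate 2), against 74.6 to 82.8 for the open promoters of all genes. In every library the Hox median lay below the median of all genes.

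**Figure D2:**
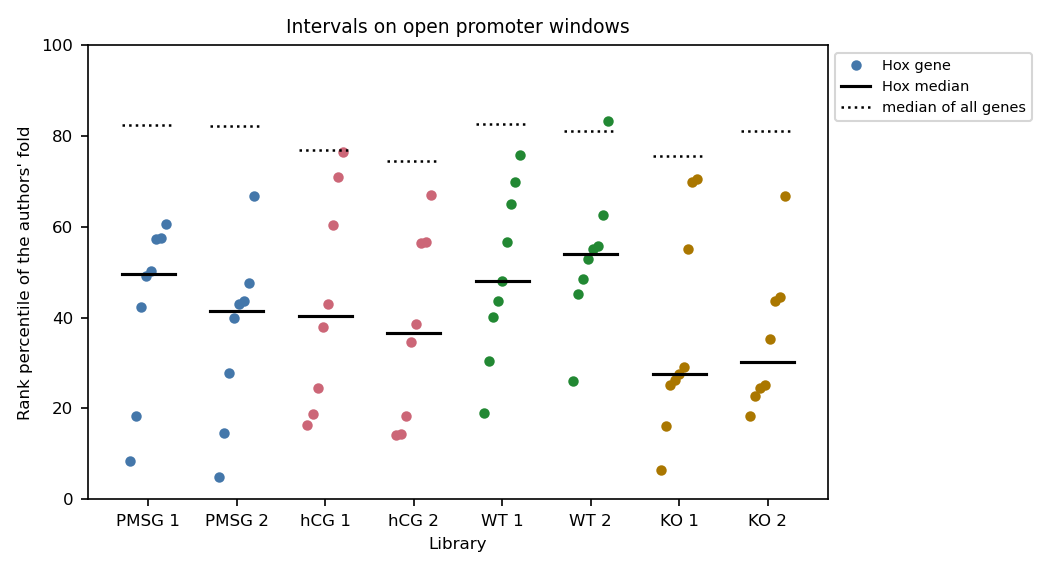
Rank percentile of the authors' fold for the interval on each open Hox promoter window, by library. Points are genes (8 or 9 a library), solid bars their median, and dotted bars the median over all open promoters of protein-coding genes. A single Hox point, Hoxc4 in WT replicate 2 at 83.3, lies above the dotted bar of its library.

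In each cluster the 3 regions held by all libraries with the best mean rank percentile are described here. At Hoxc the first (mean 72.7, from 63.0 to 80.7 over the libraries) lay on chromosome 15 at 102942869 to 102943654, between Hoxc12 and Hoxc11, 4260 bp from Hoxc12 and outside the body of Hotair, a long non-coding RNA of this cluster. The next were the region at the tabled start of Hoxc4 (103034142 to 103035471, mean 69.5) and one of 2330 bp inside Hoxc6 (102998702 to 103001031, mean 55.1). At Hoxb they were an interval 9339 bp from Hoxb9 in the non-coding gene Gm53 (96261491 to 96261991, mean 68.6), one inside Hoxb3 (96311292 to 96311994, mean 61.1) and one inside Hoxb8 (96284173 to 96284912, mean 52.5). The last of these lies within 1 kb of an end of Hoxb7 and is the interval by which Hoxb7 was called open. At Hoxd the best lay inside Hoxd3 and the non-coding Hoxd3os1 (74715745 to 74716237, mean 63.8), at the start of Hoxd1 (74762673 to 74763526, mean 60.9) and at that of Hoxd9 (74697556 to 74698838, mean 53.2). At Hoxa they lay inside Hoxa3 and Hoxaas3 (52211489 to 52212131, mean 62.6), inside Hoxa10 (52240117 to 52240770, mean 59.2) and between Hoxa7 and Hoxa9 (52221389 to 52222063, mean 58.4, 1034 bp from Hoxa9).

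Several Hox starts without an interval on the promoter window had one just inside the gene. Hoxa5, needed for lung development, had its nearest interval between 97 and 644 bases downstream of the start in the 8 libraries. Hoxa10, a regulator of uterine patterning and implantation, had one between 84 and 228 bases downstream of its start at 52240854. Hoxd8 had one beginning 19 to 275 bases downstream, which reached into the window in WT replicates 1 and 2 and KO replicate 1 and began beyond it in the other 5 libraries. An interval within 1 kb downstream, with none on the start or within 1 kb upstream, was found at 3 to 7 of the 24 tabled Hox starts per library. This count goes by the start base and includes starts whose promoter window was open, such as Hoxd3 and Hoxd13 in PMSG replicate 2. The shares ran from 12.5% (PMSG replicate 1) to 29.2% (WT replicate 1), against 3.01% and 3.04% of all 21045 starts in PMSG, 2.79% and 2.87% in hCG, 2.82% and 3.05% in WT and 2.68% and 3.08% in KO. The mirror case upstream was found at 0 or 1 Hox start per library (0 or 4.17%), against 2.28% to 2.72% of all starts.

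**Figure D3:**
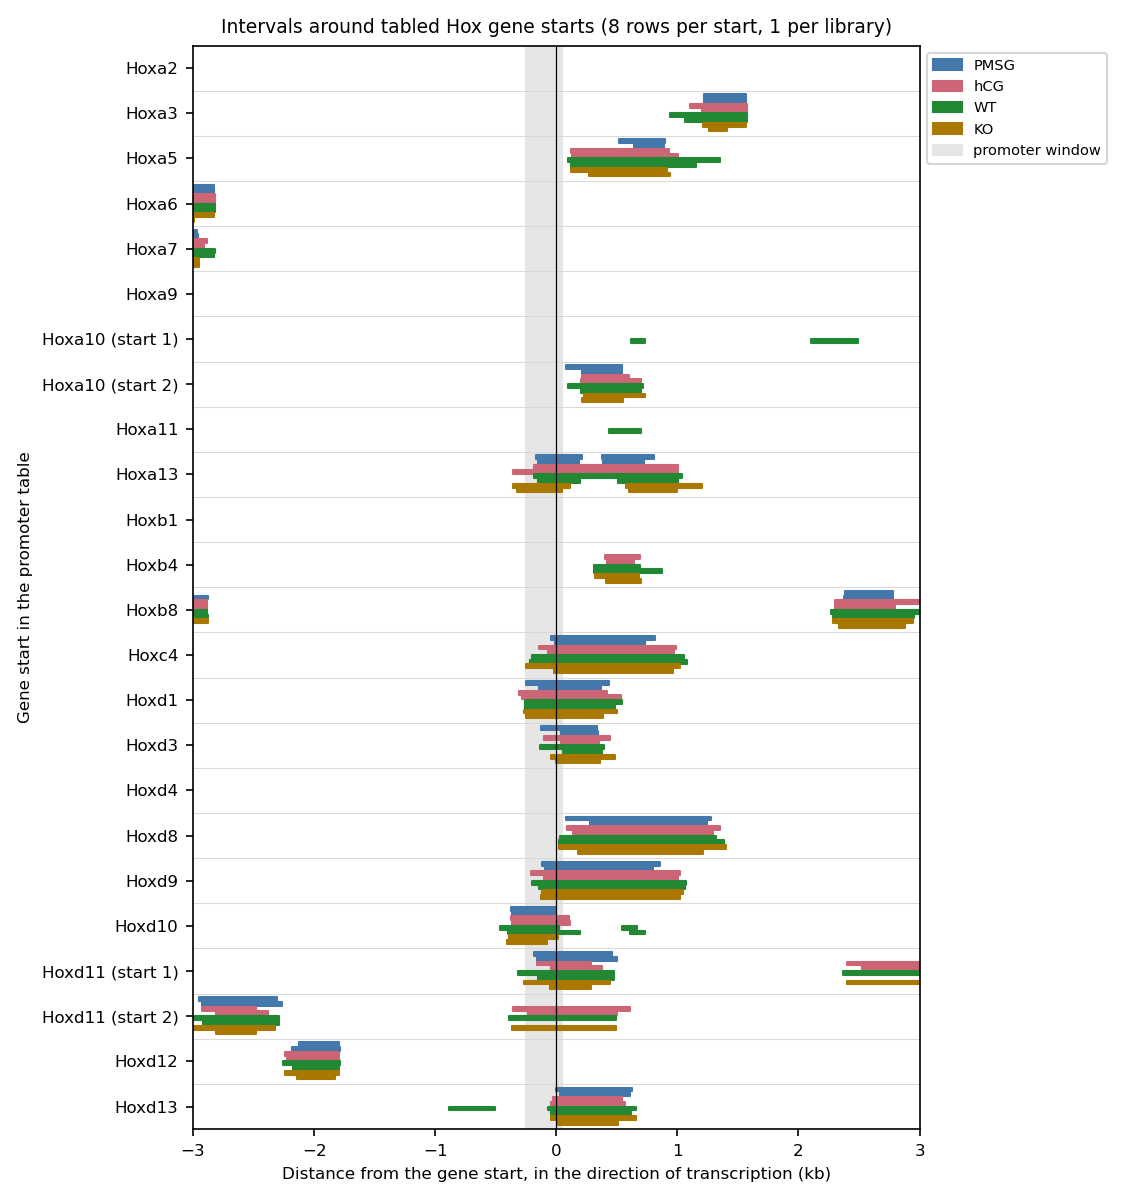
Intervals within 3 kb of the 24 tabled Hox gene starts. The x axis is the distance in kb from the start in the direction of transcription, each start has 8 thin rows (PMSG, hCG, WT and KO, replicates 1 and 2 of each), bars are intervals coloured by group, the grey band is the promoter window, and for Hoxa10 and Hoxd11 start 1 has the lower coordinate. Hoxa5, Hoxa10 start 2, Hoxb4 and Hoxd8 show intervals downstream of the start, and Hoxa13, Hoxc4, Hoxd1 and Hoxd9 show intervals across it in all 8 libraries.

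At Hoxa, Hoxa13, which patterns digits and the urogenital sinus, was the one gene open in all 8 libraries. Its authors' fold was 10.2 and 8.33 in the PMSG libraries, 7.48 and 7.15 in the hCG libraries, 7.46 and 7.67 in the WT libraries and 5.99 and 5.50 in the KO libraries. Both KO values were the lowest, and the hCG values lay below the PMSG values. Hoxa4 was called open in replicate 1 of each group (fold 6.57 in PMSG, 5.82 in hCG, 5.91 in WT and 5.26 in KO) and in replicate 2 of none, by an interval at 52191886 to 52192158. Its presence therefore followed the replicate number and not the group. Hoxa2, Hoxa7 and Hoxa9 had no interval in the body, on the promoter window or within 1 kb of an end in any library.

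At Hoxb, Hoxb7 was open in all 8 libraries, with a fold of 7.85 and 8.21 in PMSG, 9.79 and 10.1 in hCG, 9.68 and 10.3 in WT and 6.74 and 8.18 in KO. Its hCG values lay above its PMSG values and its WT values above its KO values. Hoxb2, a hindbrain gene, was open in PMSG replicate 1 (fold 4.93), in hCG (6.20 and 5.48), in WT (7.95 and 8.73) and in KO replicate 1 (7.46). It was not open in PMSG replicate 2 and KO replicate 2, so presence did not separate either contrast at this gene. Hoxb13, a prostate gene that lies apart from the rest of the cluster, was open in hCG replicate 1 (7.10) and WT replicate 1 (5.20) and in no other library. Hoxb1 and Hoxb5 had no interval in the body or within 1 kb of an end.

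At Hoxc, Hoxc4 had the highest median rank percentile of any Hox gene window (68.5). Its fold was 10.6 and 11.8 in PMSG, 10.8 and 10.7 in hCG, 10.5 and 13.9 in WT and 10.9 and 9.75 in KO, so hCG overlapped PMSG and WT overlapped KO. Hoxc5 had 8.70 and 8.33 in PMSG, 9.30 and 9.71 in hCG, 10.03 and 10.9 in WT and 6.80 and 9.78 in KO. Hoxc6, a thoracic gene, had 11.6 and 11.2 in PMSG, 8.196 and 8.34 in hCG, 9.05 and 10.002 in WT and 6.77 and 8.38 in KO. The hCG values of Hoxc5 lay above its PMSG values and those of Hoxc6 below. Hoxc9, whose interval ranked low, had rank percentiles from 5.85 to 22.7. Hoxc13, a hair follicle gene, was open in every library but KO replicate 2, with a fold of 6.07 and 6.54 in PMSG, 6.53 and 7.51 in hCG, 6.53 and 7.76 in WT and 5.54 in KO replicate 1. Hoxc11 was not open in PMSG and had a fold of 5.13 and 5.32 in hCG, 6.72 and 6.52 in WT and 5.07 and 4.30 in KO. These are the strongest intervals on its window, and they lie in different regions: on the region at 102954617 to 102955120, which all 6 libraries hold, WT had 4.45 and 5.80, overlapping KO. Hoxc12 had no interval in its body or within 1 kb of an end.

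At Hoxd, Hoxd1 had the highest median rank percentile of the cluster (60.1). Its fold was 10.2 and 8.76 in PMSG, 11.6 and 9.44 in hCG, 11.5 and 9.72 in WT and 10.8 and 7.18 in KO, with replicate 1 above replicate 2 in each group. Hoxd9 varied little, from 9.22 to 9.48 in the F1 libraries, 8.47 and 8.58 in WT and 8.97 and 7.09 in KO. Hoxd3 was open in all libraries but WT replicate 2, with a fold of 4.89 and 4.37 in PMSG, 5.30 and 5.14 in hCG, 5.79 in WT replicate 1 and 5.07 and 5.39 in KO. An interval lay within 1 kb of an end of it in all 8. Hoxd8 was called open by its promoter window in WT (9.69 and 8.24) and KO replicate 1 (6.19) only. The region behind these calls (74704634 to 74706020) was held by all 8 libraries. Its fold was 10.2 and 9.91 in PMSG, 9.13 and 8.74 in hCG and 6.10 in KO replicate 2. Hoxd10, Hoxd11 and Hoxd13, genes of the limb and the lower trunk, were open in all 8, and Hoxd4 and Hoxd12 had no interval in the body.

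The order of the folds has to be read against the lists as a whole, since the authors' fold is scaled within each library. Of 15 Hox genes open in both hCG and both PMSG libraries, 4 (26.7%) had both PMSG folds above both hCG folds (Hoxa13, Hoxc6, Hoxc9 and Hoxd11), against 82.4% of 12922 genes. The reverse order was found at 5 of the 15 (33.3%: Hoxb7, Hoxc5, Hoxc8, Hoxd3 and Hoxd9), against 5.03%. Hoxd11, for one, had a fold of 8.35 and 8.70 in PMSG and 5.06 and 5.12 in hCG, and Hoxc8 had 7.61 and 6.60 in PMSG and 8.81 and 8.55 in hCG. Of 15 Hox genes open in both WT and both KO libraries, 9 (60%) had both WT folds above both KO folds, against 52% of 13024 genes, and Hoxc11 is among the 9 only through its second region. None of the 15 (0) had the reverse, against 0.868%. The folds of most genes open in these 4 F1 libraries were thus lower in hCG than in PMSG, and no single Hox gene's fold is taken as a difference between groups. Hox intervals rank low in their lists, and the part of that in these counts was not tested.

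**Figure D4:**
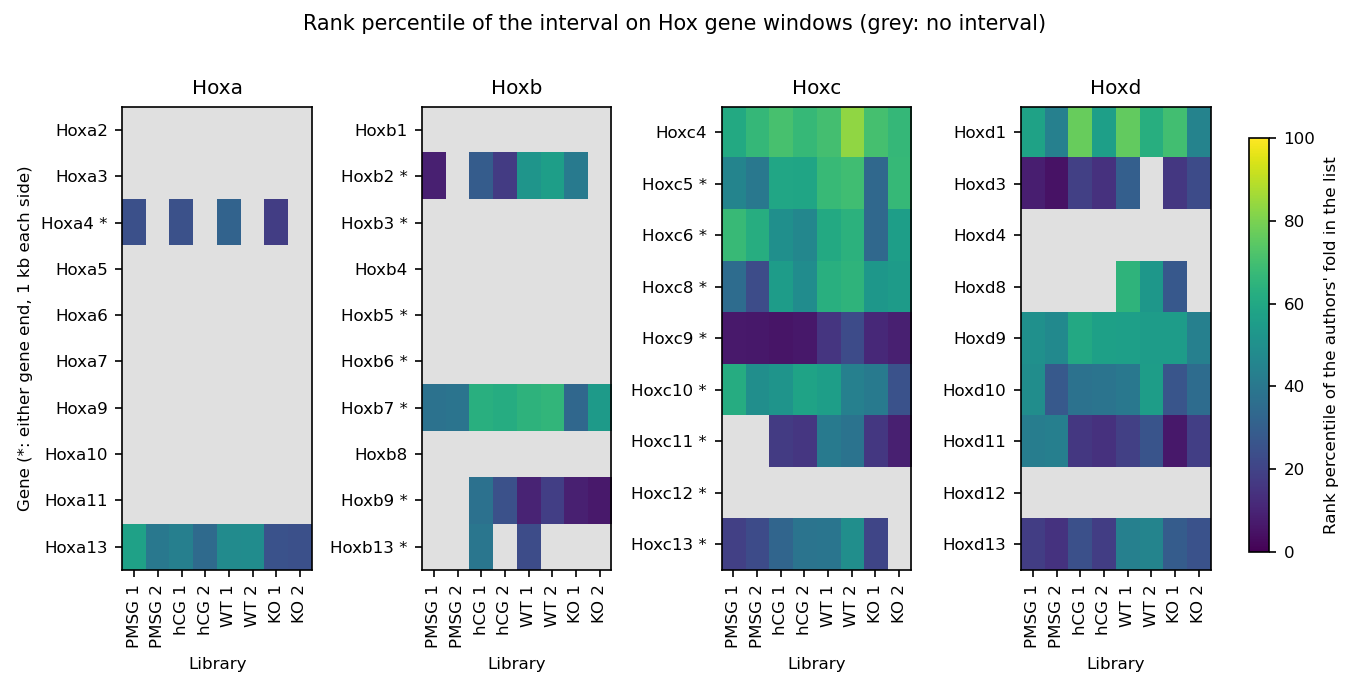
Rank percentile of the strongest interval on the window of Hox genes (rows) in each library (columns), by cluster. Colour runs from 0 to 100, grey means no interval, and an asterisk marks genes judged by either gene end with 1 kb on each side. Hoxc and Hoxd rows are mostly filled, Hoxa rows are grey but for Hoxa13 and, in 4 libraries, Hoxa4, and Hoxb9 and Hoxc11 are grey in both PMSG libraries and filled in the other 6.

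The comparison of hCG with PMSG asks what the LH-like stimulus changed at these clusters in F1 mice. The hCG libraries held 50 and 47 Hox intervals (mean 48.5 ± 2.12, SD, n = 2) and the PMSG libraries 40 each, a difference of 8.5 intervals (exact permutation p = 0.33, two-sided, the smallest that 2 against 2 allows). The replicate ranges did not overlap. The direction did not hold at equal list length: with 55654 intervals from every library the difference was -2 intervals (exact permutation p = 0.667). Covered sequence was 30.5 and 26.9 kb in hCG and 19.7 and 17.5 kb in PMSG. By cluster, the covered share was 3.77% ± 0.255 in hCG and 2.14% ± 0.269 in PMSG at Hoxa, 2.86% ± 0.386 and 1.63% ± 0.124 at Hoxb, 7.62% ± 0.639 and 4.90% ± 0.418 at Hoxc and 6.93% ± 0.486 and 5.23% ± 0.325 at Hoxd (SD, n = 2 each). In each cluster both hCG libraries lay above both PMSG libraries (exact permutation p = 0.33 each, 4 clusters compared). Over the windows of all protein-coding genes with 10 kb either side the share was 2.44% and 2.39% in hCG and 1.86% and 1.87% in PMSG, so the hCG lists covered more sequence there as well.

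**Figure D5:**
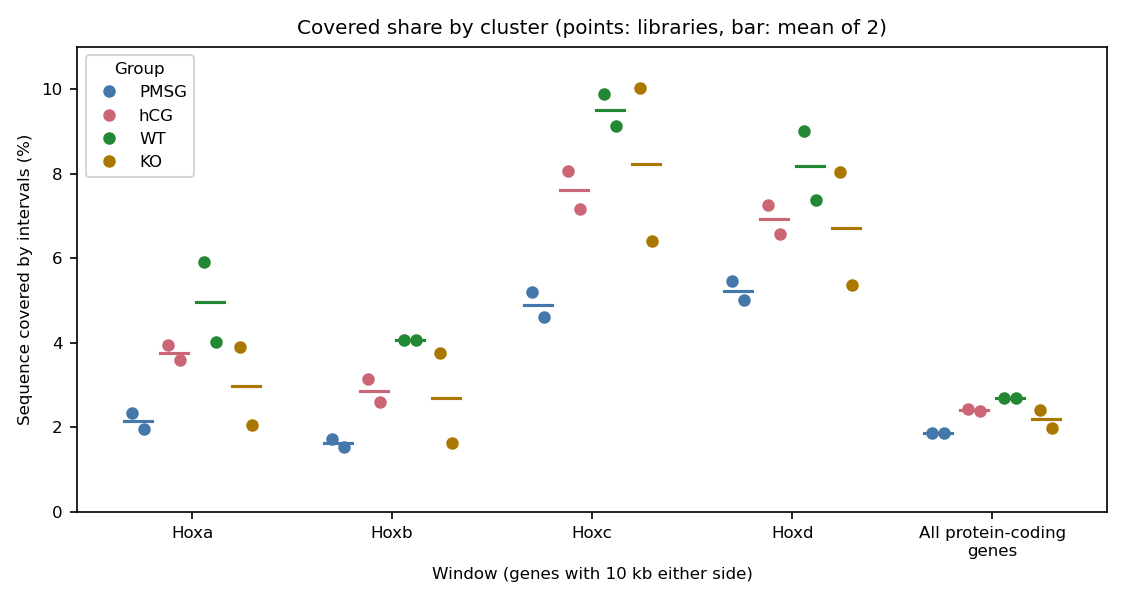
Share of sequence covered by intervals in each Hox window and in the merged windows of all protein-coding genes. The x axis gives the window, the y axis the covered share in percent from 0, points are libraries coloured by group, and bars are means of 2 libraries. Hoxc and Hoxd lie above Hoxa and Hoxb in every group, and the KO libraries differ from each other by more than the hCG or PMSG libraries do.

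Presence of single regions was read from the 4 lists of each experiment. In the F1 mice, 50 Hox regions were found, of which 33 (66%, against 49.9% of 81943) were held by all 4 libraries, 7 (14%, against 17.7%) by both hCG and neither PMSG library, and 1 (2%, against 10.4%) by both PMSG and neither hCG library. The hCG-only share was thus near that of the genome. With 55654 intervals from every library, 1 of 43 Hox regions was hCG-only (against 15.7% genome-wide) and 1 PMSG-only (against 13.6%). At a −log10 q of at least 20, 3 of 44 were hCG-only (6.82%, against 19.3%). Cd68, open in both hCG libraries alone, moved with this contrast, and its part in these counts was not tested.

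The hCG-only regions named 6 genes or gaps. Hoxb9, a thoracic and lumbar gene, had a region of 1325 bp over one of its ends (96271058 to 96272382) with a fold of 6.93 and 6.21 in hCG, and it was also held by WT (4.04 and 4.80) and KO (4.28 and 4.13). Hoxc11 had 2 regions in its body, one at 102954617 to 102955120 (5.13 and 5.32 in hCG, held by all WT and KO libraries) and one at 102955901 to 102956247 (4.50 and 4.30 in hCG, held by WT and by KO replicate 1). Inside Hoxb4, a gene of blood stem cells, and within the span of Hoxb3 lay a region at 96318673 to 96318956 (6.20 and 4.47 in hCG, held by all WT and KO libraries). The others lay in Hoxb6 (96299218 to 96299493), at the second tabled start of Hoxd11 (74681963 to 74682933) and 5117 bp from Hoxa13 (52252675 to 52253736). All 7 ranked below percentile 40 in both hCG lists. Those at Hoxb9, Hoxb4 and the first in Hoxc11 were present in every library from hCG-treated mice, in both strains and both genotypes, and in neither PMSG library. That is 3 of 50 Hox regions (6%), against 7.23% of 81943 regions genome-wide, and 0 of 43 (against 6.68% of 75141) with the same number of intervals per library.

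Counted by gene, Hoxb9 and Hoxc11 were open in both hCG and neither PMSG library, 2 of 39 (5.13%, against 1.07% of 21631) and 2 of the 17 genes with gene-end windows (11.8%, against 1.4% of 4357). None of the 22 genes with a promoter window was (against 0.99% of 17274), and no Hox gene was open in both PMSG and neither hCG library (against 0.337% of 21631). With 55654 intervals from every library Hoxb9 alone was called (2.56%, against 0.901%), at a −log10 q of at least 20 Hoxb9 and Hoxc13 were (5.13%, against 1.27%), and with 1 kb around either end Hoxb4, Hoxb9 and Hoxc11 were (7.69%, against 1.29%). The PMSG-only region lay 1093 bp from Hoxb9, at 96269980 to 96270237, beside the hCG-only region of that gene, with a fold of 8.27 and 6.98 in PMSG, and it was also held by WT (5.38 and 5.74) and KO replicate 1 (4.76).

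The comparison of WT with KO asks what depends on PGR after hCG. The WT libraries held 60 and 58 Hox intervals and the KO libraries 54 and 38, a difference of 13 intervals (59 ± 1.41 against 46 ± 11.3, SD, n = 2, exact permutation p = 0.33, the smallest possible). Without KO replicate 2, which had the shortest list, the difference was 5, without KO replicate 1 it was 21, and with 55654 intervals from every library it was -4. Per 10000 intervals of the list the counts were 7.49 and 6.88 in WT and 9.18 and 6.83 in KO. The KO libraries thus differed from each other by more than WT from KO. Covered shares overlapped between WT and KO at Hoxc (9.88% and 9.12% against 10.03% and 6.41%) and Hoxd (9.002% and 7.39% against 8.05% and 5.36%), and did not overlap at Hoxa (5.92% and 4.01% against 3.90% and 2.04%) and Hoxb (4.07% and 4.06% against 3.76% and 1.62%). Nor did they over the windows of all protein-coding genes, at 2.70% and 2.68% in WT against 2.41% and 1.99% in KO.

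In the PR strain, 62 Hox regions were found, of which 36 (58.1%, against 53.3% of 91502) were held by all 4 libraries, 3 (4.84%, against 12.1%) by both WT and neither KO library, and 0 (against 0.0842%) by both KO and neither WT library. The WT-only regions were short and weak. They lay in Gm53 and 10796 bp from Hoxb9 (96260387 to 96260534, fold 4.41 and 3.78), in Hoxd10 (74692431 to 74692628, 3.23 and 3.53) and in Hoxd3 (74715044 to 74715279, 4.34 and 5.62). None was held by a PMSG or hCG library. Without KO replicate 1 there were 14 WT-only regions of 63 (22.2%, against 19.9% genome-wide) and without WT replicate 2 there were 9 of 61 (14.8%, against 21.8%). Without WT replicate 1 there were 4 of 58 (6.9%, against 25.1%) and without KO replicate 2 there were 3 of 62 (4.84%, against 16%). With equal list length there were 1 WT-only (against 2.78% genome-wide) and 3 KO-only regions (against 2.5%) among 49. No Hox gene was open in both WT and neither KO library (against 0.841% of 21631 genes) or the reverse (against 0.0139%).

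The genes that work with Hox proteins or control the clusters were open in a larger share. Of 9 TALE cofactors, 8 were open in all 8 libraries, among them Meis1 and Pknox1, and Meis2 in 5. All 17 Polycomb genes of the list were open in all 8 libraries, among them Ezh2, Eed and Suz12, the core of the complex that methylates histones at silent genes. Of 6 trithorax genes, which counteract Polycomb, 5 were open in all 8 (Kmt2a, Kmt2b, Men1, Wdr5 and Rbbp5) and Ash2l in none. The share over all genes was 58.9%. Among the homeobox genes related to the clusters, Cdx1 and Gsx2 were open in all 8 libraries, Gsx1 in 7, and Cdx2, Cdx4 and Pdx1 in none. Evx1 and Evx2, which flank the Hoxa and Hoxd clusters, were open in none.

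The windows also held 27 long non-coding RNA genes, of which 7 had an interval in the body in all 8 libraries (25.9%, against 32.5% of 12697 such genes genome-wide) and 11 in none (40.7%, against 49.2%). Their median length was 4.53 kb, against 8.41 kb genome-wide. Hoxd3os1 and Gm38462 in Hoxd and Gm30528 in Hoxc had an interval on a tabled promoter window in all 8, while Hotair and Hottip had none in the body. Of 6 miRNA genes, Mir615 had an interval on its hairpin in 2 libraries and Mir10a, Mir10b, Mir196a-1, Mir196a-2 and Mir196b in none. No interval in any library is the usual case for a hairpin, found at 88% of 1228 miRNA genes genome-wide and at 83.3% of these 6. The mature 5p strands of the last 5 fall into the families miR-10 and miR-196. They are shown, from RefSeq build GRCm38.p6 with the seed (bases 2 to 8) in capitals, because the same seeds recur in different clusters.
mmu-miR-10a-5p: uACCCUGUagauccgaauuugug
mmu-miR-10b-5p: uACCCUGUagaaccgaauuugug
mmu-miR-196a-5p: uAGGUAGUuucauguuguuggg
mmu-miR-196b-5p: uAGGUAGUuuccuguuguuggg
The miR-10 copies lie in Hoxb and Hoxd and share the seed, and the miR-196 copies lie in Hoxa, Hoxb and Hoxc and share theirs. No library had an interval on any of these 5 hairpins.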

How the data were processed

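ATAC-seq peak lists of 8 granulosa-cell libraries (4 groups of 2) were analysed. The authors aligned reads with Bowtie2, called peaks with MACS2 and used build mm10, per the submitters' processing notes, which give no versions. A shift of reads for Tn5 and the peak threshold are not given in the sources used here, and on duplicates there are only the peak names of the WT and KO lists, which speak of marking. Each list is per library, so replicates could be compared by presence.

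Column 7 of each deposited list is taken as the authors' fold enrichment, column 8 as the authors' −log10 p and column 9 as the authors' −log10 q, of which every deposited value is at least 10. The deposited score in column 5 is a whole-number form of column 9 and was not used. Read depth is unknown, so no interval or detection floor is given.

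Rows with the same coordinates were joined into 1 interval with the highest fold. Hox members, related genes and markers were chosen with earlier results of these data known. Gene positions and sequences came from RefSeq GRCm38.p6, whose promoter table holds 22 of the 39 Hox genes (24 starts), and the other 17 were judged by either gene end with 1 kb on each side. Values per library are given for genes whose presence differed between libraries and for the 3 with the highest median rank in each cluster, and regions are named if held by 1 group only or among the 3 best shared ones of a cluster. Some genes are counted but not reported by name here. Genes named beyond this were chosen after their values were seen. Group differences were tested by exact two-sided permutation over libraries, for which 2 against 2 allows no p below 0.33. Alternatives were a −log10 q of at least 20, the same number of intervals per library, wider or no flanks, other gene windows, 50% cover and each library left out. The region-calling code was run on simulated data for the F1 comparison, where all 200 planted regions of each direction were returned. That checks the code and not its sensitivity. Python 3.11.15, pandas 2.3.3, numpy 2.4.6 and matplotlib 3.10.9 were used.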

Additional observations from a re-analysis of the deposited data

How the results depend on the processing

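The excess of Hox intervals did not hold at equal list length: with the 55654 strongest intervals of every library, hCG minus PMSG was -2 (exact permutation p = 0.667) and WT minus KO was -4 (exact permutation p = 1). By construction that setting takes away the difference in list length. It also gave 1 hCG-only region in place of 7, 1 WT-only in place of 3 and 3 KO-only in place of 0. At a −log10 q of at least 20 there were 3 hCG-only regions of 44 (6.82%, against 19.3% genome-wide). The 13 Hox genes open in all libraries became 3 when 50% of the window had to be covered, a loss of promoter windows (7 to 3) and gene-end windows (6 to 0) alike. Leaving out each library in turn gave hCG minus PMSG from 7 to 10 intervals and WT minus KO from 5 to 21. It gave 8 to 10 hCG-only, 1 to 2 PMSG-only (2 without hCG replicate 1), 3 to 14 WT-only (14 without KO replicate 1, 9 without WT replicate 2) and 0 KO-only regions. It gave 13 to 14 Hox genes open in all libraries, with 18 open in none. Leaving out a library loosens the rule for a group-only region. Genome-wide shares at this step were computed for WT-only regions alone, so the other group-only counts are not read against the main ones. With replicate numbers as a block, the differences were 8.5 and 13 intervals (exact sign-flip p = 0.5 each, the smallest that 2 pairs allow), and the numbers carry no stated pairing. Judging genes by 1 kb around the start was chosen after seeing the data. Unknown depth and 2 pooled libraries per group limit every comparison of presence.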
